A study of Homo sapiens with 95 samples.

Results

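Matrix metalloproteinases, their tissue inhibitors (TIMPs) and the activators of plasminogen were followed in human bronchial epithelial cells carrying 1 of 8 constructs and exposed to tobacco-related chemicals. The group held 10 genes of the 23895 whose counts were deposited for every well: the inhibitors TIMP1, TIMP2 and TIMP3, the metalloproteinases MMP1, MMP2, MMP10 and MMP14, the urokinase gene PLAU, the urokinase receptor gene PLAUR and the tissue plasminogen activator gene PLAT. The members were listed by symbol and chosen by their CPM levels across the 8 populations and 4 chemicals, which were already known. Levels and fitted values below therefore describe these wells, and the adjusted p-values, which come from fits over all genes, are not independent evidence for the choice of genes.

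Metalloproteinases are secreted or membrane-bound zinc enzymes that cut collagens, laminins and other matrix proteins, and TIMPs bind to their active site and block them. Urokinase and tissue plasminogen activator cut plasminogen into plasmin, a serine proteinase that cleaves fibrin and matrix and can activate several metalloproteinases. The urokinase receptor holds urokinase at the cell surface, and inhibitors of the serpin family inactivate both activators. In airway epithelium this system takes part in wound closure, migration and matrix turnover.

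The cells were AALE, an immortalized line of bronchial epithelium, profiled by 3′ digital gene expression, in which a unique molecular identifier (UMI) marks each captured molecule and only the 3′ end of a transcript is read. Each UMI counts as 1 molecule, so levels were scaled to the total of each well (CPM) without division by length. HCRED cells carried an empty vector with the HcRed reporter and were the control for overexpression of NRF2 (gene NFE2L2), FGFR1, NRG1 or PIK3CA. GFP cells had received the pSpCas9-EGFP plasmid without a guide and were the control for the FAT1 and CDKN2A CRISPR knockouts. HCRED and the 4 populations compared with it are called overexpression populations, and GFP, FAT1 and CDKN2A Cas9 populations. The media contained the vehicle DMSO, 24 µg/ml of CSC, a condensate of cigarette smoke, 173 µM of BaP, the polycyclic hydrocarbon benzo[a]pyrene, or 490 µM of the tobacco nitrosamine NNK. The sources used here do not say whether a population came from 1 clone. The study calls the wells of a condition biological replicates without describing separate cultures before plating, so p-values measure the spread between wells. Chemical went with the plate row and population with the position on the plate, and these cannot be told apart.

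Among 95 wells, 82 had 1-digit replicate numbers, in 31 groups, and the 25 groups that held 3 such wells entered the fits. The 13 wells with 2-digit numbers are given apart. Totals ran from 692446 to 1895735 UMI counts per well in the 82 wells. The counts of NRG1 NNK replicate 2 differed from those of its group by 11.3 and 11.8 chi-square units per degree of freedom, against at most 2.89 in the other 74 pairs of replicates. Under DMSO the introduced gene was higher than in every HCRED well in all 4 overexpression populations, and FAT1 and CDKN2A were lower in their knockout wells than in every GFP well. CDKN2A RNA remained, at 19.0 to 23.8 CPM against 34.9 to 38.6 CPM in GFP wells, and FAT1 held 0 to 3.40 against 5.86 to 11.6 CPM. Over all chemicals the median of CDKN2A was 20.4 CPM in CDKN2A cells and 28.0 CPM in GFP cells. The 8 basal epithelial markers were detected in all 82 wells, whereas SCGB3A1, MUC5B, BPIFA1 and FOXJ1 of secretory and ciliated cells, VWF and CDH5 of endothelium and CD3E of lymphocytes were at 0 in all of them. Other genes on the lists for those cell types were counted: TUBA1A averaged 47 CPM and CD68 18.4 CPM with no well at 0, DCN averaged 3.98 CPM with 8 wells at 0, LYZ 3.86 CPM with 2 and PECAM1 1.39 CPM with 17. Their part in the results was not tested. In cultures measured in bulk, fewer cells that express a gene and less of its RNA per cell cannot be told apart.

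TIMP1 took nearly all of the counts of the group. It held 95.1% of the counts of the 10 genes and ranked 188th of the 23895 genes by mean CPM, with a mean of 929 CPM over 82 wells. PLAUR followed at 1.99% of the group's counts and TIMP3 at 1.12%. The other members were sparse: PLAU averaged 8.99 counts per well, TIMP2 8.22 and PLAT 2.62, and the 4 metalloproteinases stayed under 1 count per well on average. MMP1 had 66 counts in the 82 wells together, MMP10 55, MMP14 45 and MMP2 19. A well without a count of a gene allows up to 3 counts of it, and this limit, like all single-well values, covers counting error only.

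The sequences of 2 upstream regions are shown because TIMP1 and PLAUR were the 2 members with more than 10 counts per well that were called under CSC. They were taken from RefSeq and placed in hg19 by exact match. Both strands were searched for TGAGTCA, a consensus site of AP-1 factors, and its reverse complement TGACTCA was counted as the same site. Variants of that site were not searched. The PLAUR stretch lies on the minus strand at chr19:44174489-44174518, within an exon annotated as 5′ untranslated in 1 GENCODE transcript, and its capitals mark a match 186 to 180 bases before the RefSeq start. The TIMP1 stretch lies on the plus strand at chrX:47441585-47441806 and ends where the first annotated exon begins. It holds no exact match, though it contains tgagtaa, a variant outside the search.
PLAUR: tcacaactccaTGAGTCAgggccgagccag
TIMP1: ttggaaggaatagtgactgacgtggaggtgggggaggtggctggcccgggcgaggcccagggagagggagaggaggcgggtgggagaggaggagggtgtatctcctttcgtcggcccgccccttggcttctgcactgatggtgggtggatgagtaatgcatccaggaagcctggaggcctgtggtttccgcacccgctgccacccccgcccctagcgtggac

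Among 35116 RefSeq promoters, 4.2% held the site in the 250 bases before the start. PLAUR was the only gene with a match among the 6 members searched, which were TIMP1, TIMP3, MMP10, MMP14, PLAU and PLAUR. A match of letters does not show that a factor binds there, and its absence in a window says nothing about a factor.

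TIMP1, which inhibits most secreted metalloproteinases and also has growth-promoting activity, separated the overexpression populations from the Cas9 populations. The gene lies at hg19 chromosome X, 47441807 to 47446188, within SYN1 on the opposite strand but without shared exon bases, and SYN1 had 1 count in 82 wells. Under DMSO the 3 HCRED wells held 1128, 1132 and 1072 CPM and the 3 GFP wells 317, 334 and 320 CPM. Every one of the 52 overexpression wells, at 857 to 1980 CPM, lay above every one of the 30 Cas9 wells, at 297 to 440 CPM, whatever the chemical. The lowest overexpression well was 1.95 times the highest Cas9 well, and 1.49 times when TMM factors scaled the totals, where NRG1 NNK replicate 2 was the lowest.

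**Figure D1:**
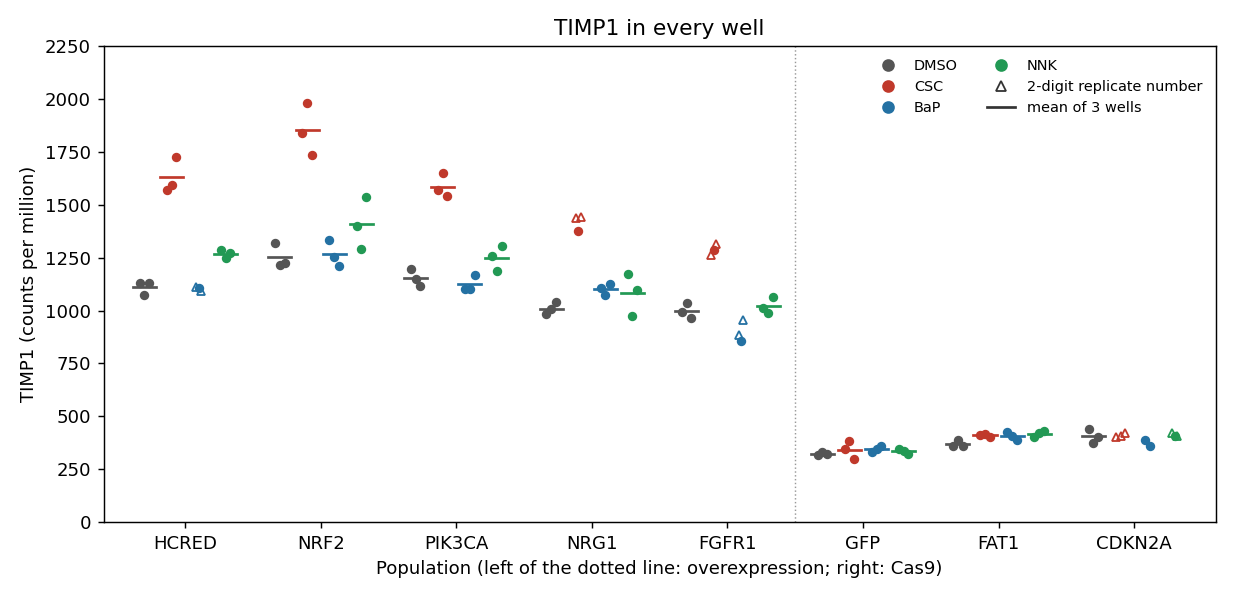
TIMP1 in CPM (y axis) in each of the 95 wells, by population (x axis) and chemical (colour), with filled circles for 1-digit wells, open triangles for 2-digit wells and a line at the mean of 3 wells. The overexpression wells left of the dotted line lie at 857 CPM or above and the Cas9 wells right of it at 440 CPM or below, and the CSC wells stand above the DMSO wells in the 5 overexpression populations.

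The order of mean TIMP1 levels under DMSO was NRF2 at 1253 CPM, PIK3CA 1154, HCRED 1111, NRG1 1009, FGFR1 998, CDKN2A 407, FAT1 370 and GFP 324 CPM. In CPM, neighbours in this order overlapped in their wells for PIK3CA and HCRED, NRG1 and FGFR1, and CDKN2A and FAT1. They did not overlap elsewhere. This order holds for CPM scaled to well totals, whereas the fitted differences also used TMM factors, so the 2 can differ in size. HCRED and NRG1 wells were apart in CPM, but the fit of NRG1 against HCRED gave -0.06 (SE 0.04, adjusted p = 0.580, limma-voom). The level in GFP cells against HCRED cells differed by -1.72 on the log2 scale (SE 0.06, adjusted p = 3.02e-27, limma-voom), with 10.8% of all genes called in that comparison. NRF2 cells exceeded HCRED cells by 0.27 (SE 0.04, adjusted p = 5.20e-06), beside 4.91% of all genes called. FAT1 cells exceeded GFP cells by 0.25 (SE 0.08, adjusted p = 0.0146), where 14.1% of all genes were called, and the call was lost without GFP DMSO replicate 1 (adjusted p = 0.0871), GFP DMSO replicate 3 (0.0521) or FAT1 DMSO replicate 2 (0.0666). Comparisons with HCRED share its 3 DMSO wells, and those with GFP share the GFP wells. The summed basal markers ran from 444 to 697 CPM in GFP wells and from 630 to 846 CPM in HCRED wells, and their part in the difference of TIMP1 was not tested.

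TIMP1 was higher under CSC in the overexpression populations. HCRED wells went from 1072 to 1132 CPM under DMSO to 1570 to 1726 CPM under CSC, NRF2 wells from 1216 to 1317 CPM to 1737 to 1980 CPM, and PIK3CA wells from 1115 to 1196 CPM to 1540 to 1647 CPM. No CSC well overlapped a DMSO well in these 3 populations. FAT1 wells moved from 361 to 387 CPM to 401 to 419 CPM, again without overlap, while GFP wells at 297 to 383 CPM under CSC overlapped those at 317 to 334 CPM under DMSO. Across the 5 populations, in a fit of 30 wells with population as a covariate, TIMP1 differed by 0.45 on the log2 scale (SE 0.03, adjusted p = 3.74e-18), beside 5.81% of all genes called.

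The size of that response differed between populations. The moderated F for the population by chemical terms of TIMP1 was 11 (adjusted p = 0.000853 over 11371 genes), and 12 genes in all, 0.106%, passed. That number of genes was 63 without FAT1 CSC replicate 1, 29 without FAT1 CSC replicate 2, 19 without FAT1 DMSO replicate 1, 48 with a replicate block and 1 with low counts kept. Within populations the log2 fold change was 0.59 (SE 0.06) in HCRED, 0.52 (SE 0.05) in NRF2, 0.50 (SE 0.05) in PIK3CA, 0.13 (SE 0.08) in FAT1 and 0.06 (SE 0.09) in GFP cells. The difference did not pass when genes with low counts were kept (F 7.29, adjusted p = 0.189). None of the other 6 members tested passed this test under CSC.

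**Figure D2:**
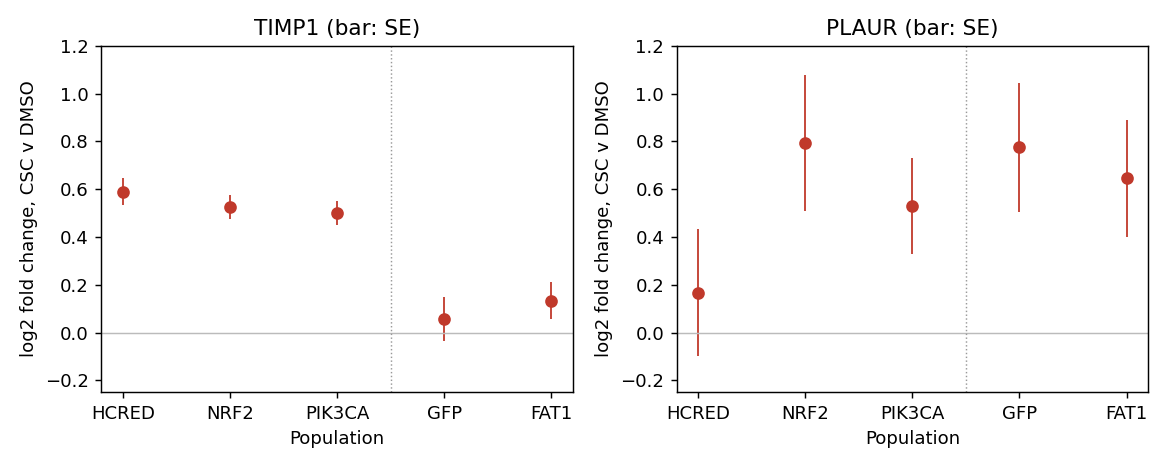
Log2 fold change of TIMP1 (left) and PLAUR (right) under CSC against DMSO within 5 populations, with bars of 1 standard error and 3 wells per group. TIMP1 lies at 0.50 to 0.59 in the 3 overexpression populations and at 0.06 and 0.13 in GFP and FAT1 cells, whereas PLAUR lies from 0.17 to 0.79 with bars that overlap between most populations.

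Some wells entered no fit because their groups held fewer than 3 wells with 1-digit numbers. The 3 FGFR1 CSC wells, 2 of them with 2-digit numbers, held 1262 to 1316 CPM of TIMP1 against 963 to 1036 CPM under DMSO. The 3 NRG1 CSC wells held 1374 to 1443 CPM against 982 to 1040 CPM, again with no overlap. The 3 CDKN2A CSC wells, all with 2-digit numbers, held 402 to 423 CPM and overlapped the DMSO wells at 376 to 440 CPM. Under BaP the 3 FGFR1 wells, at 857 to 955 CPM, lay below their DMSO wells.

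Smaller differences in TIMP1 were fitted for BaP and NNK. Under BaP the fitted log2 fold change was 0.08 (SE 0.02, adjusted p = 0.0115), beside 9.16% of all genes called. FAT1 and NRG1 wells under BaP lay above their DMSO wells, and GFP, NRF2 and PIK3CA wells overlapped them. The BaP call was lost with the 2-digit wells added (adjusted p = 0.0871) and without the FAT1 (0.0714), GFP (0.191) or NRG1 (0.14) population. Under NNK the log2 fold change was 0.16 (SE 0.05, adjusted p = 0.0225), with 7.22% of all genes called, and 0.21 without NRG1 NNK replicate 2. Of all genes 348 were higher and 471 lower under NNK with TMM factors, and 492 higher and 368 lower with median-ratio size factors. NNK wells of HCRED cells, at 1250 to 1287 CPM, and of FAT1 cells, at 403 to 432 CPM, did not overlap DMSO wells. The NNK call was lost without the FAT1, HCRED or NRF2 population (adjusted p = 0.111, 0.0656 and 0.089). The differences of the BaP and NNK responses between populations were not past the threshold for any member tested, beside 0.106% and 0.0176% of all genes.

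TIMP2, an inhibitor that also takes part in activating pro-MMP2 together with MMP14, was low throughout, at 0 to 25 counts per well in the 82 wells. Under DMSO it averaged 14.3 CPM in FGFR1 cells, with wells at 11.1, 11.2 and 20.7 CPM, and 3.42 CPM in GFP cells, with wells at 3.36, 2.49 and 4.4 CPM. All other populations had means between those values. It was lower under NNK, at a log2 difference of -0.67 (SE 0.18, adjusted p = 0.0102), and -0.77 without NRG1 NNK replicate 2. The mean fell in 6 of 7 populations, from 14.3 to 7.63 CPM in FGFR1 cells and from 7.54 to 4.42 CPM in NRF2 cells, where no NNK well overlapped a DMSO well. NRG1 cells were the exception, at 4.44 CPM under DMSO and 6.20 under NNK, with replicate 2 at 14.9 CPM and the other two wells at 2.03 and 1.65 CPM, and the fitted difference within NRG1 cells was -0.06 (SE 0.51). The 3 CDKN2A NNK wells outside the fit held 2.17 to 3.84 CPM and lay below the DMSO wells at 6.36 to 11.2 CPM. The fitted NNK call was lost without the HCRED (adjusted p = 0.0519) or PIK3CA (0.0628) population.

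TIMP2 has an exon overlap of 224 bases with CEP295NL on the same strand and of 367 bases with ENSG00000267601 on the other, and the strand used in counting is not given in the sources used here. Its wells in FAT1 cells, at 6.35, 6.23 and 12.3 CPM, lay above those of GFP cells, but the log2 difference of 1.12 (SE 0.45) had an adjusted p of 0.0842 in limma-voom and 0.0387 in edgeR. In the fit over all chemicals it passed, at 0.97 (adjusted p = 0.00228).

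TIMP3, the inhibitor that binds to the matrix itself, was highest in NRF2 and HCRED cells under DMSO. NRF2 wells held 18.9, 13.6 and 21.8 CPM and HCRED wells 19.7, 20.6 and 13.2 CPM, whereas FAT1 wells held 8.25, 6.23 and 6.94 CPM. Neighbours in the order of population means all overlapped in their wells. TIMP3 was called in none of the 10 comparisons as fitted first, but passed under some alternative settings. GFP cells against HCRED cells gave a log2 difference of -0.89 (SE 0.31, adjusted p = 0.0592), which passed in edgeR (adjusted p = 0.0488) in the fit over all chemicals (-0.69, adjusted p = 0.00446), and without HCRED DMSO replicate 3 or GFP DMSO replicate 3 (adjusted p = 0.017 and 0.0433). Without GFP DMSO replicate 2, the lowest GFP well, it was -0.51 (adjusted p = 0.369). FAT1 cells against GFP cells gave -0.27 (adjusted p = 0.701) under DMSO and -0.53 in the fit over all chemicals (adjusted p = 0.0249). PIK3CA cells against HCRED cells gave -0.74 (SE 0.28, adjusted p = 0.11), and it passed in the fit over all chemicals (-0.71, adjusted p = 0.00229) and without HCRED DMSO replicate 3 (adjusted p = 0.049).

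**Figure D3:**
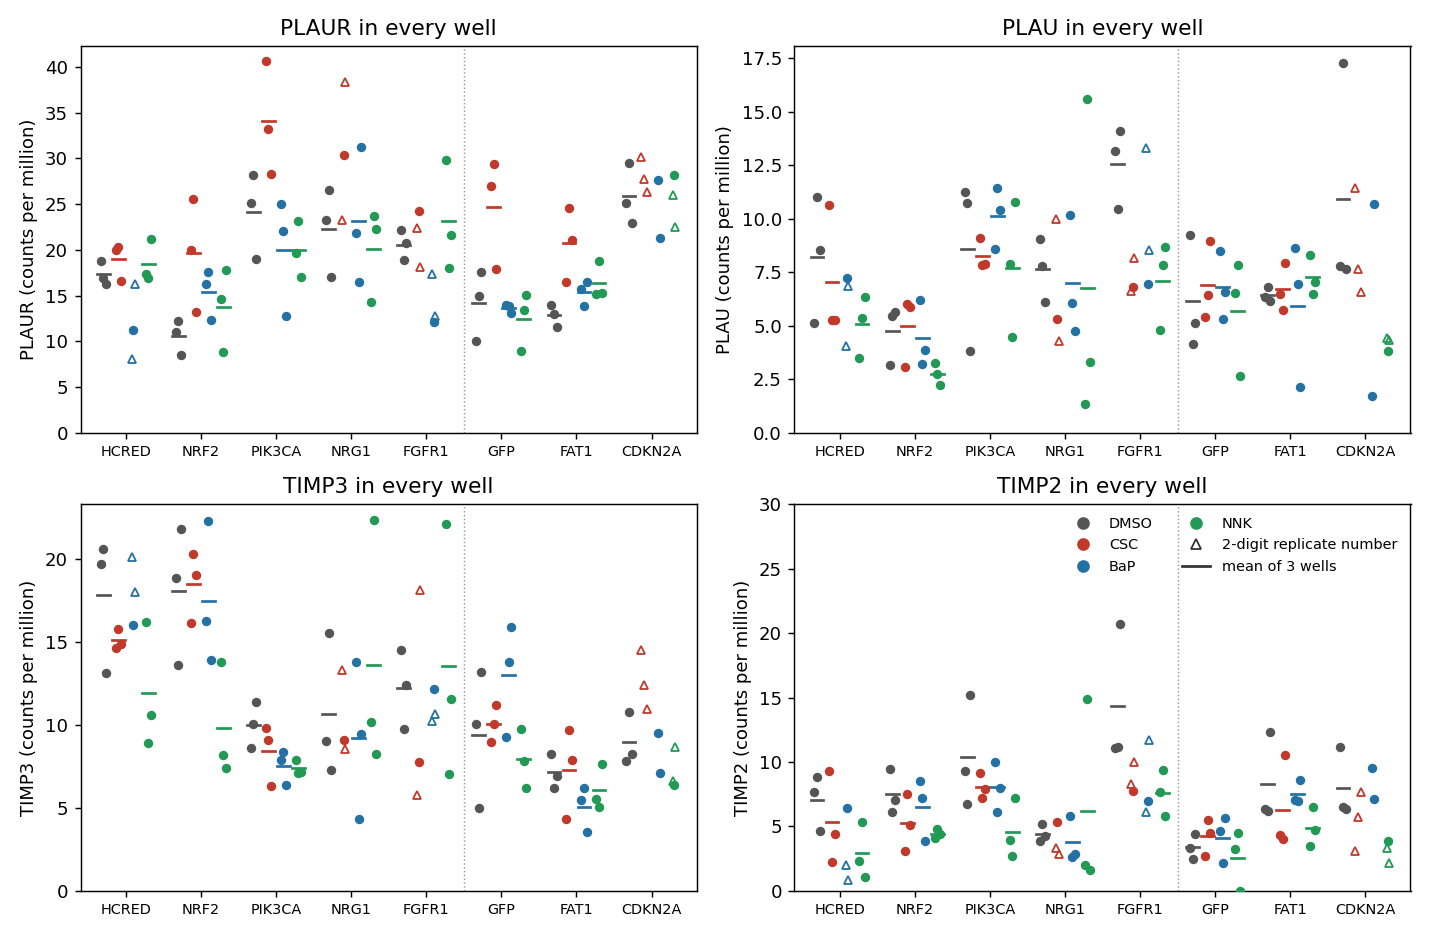
PLAUR, PLAU, TIMP3 and TIMP2 in CPM (y axes, each with its own range from 0) in every well, by population (x axis) and chemical (colour), with open triangles for 2-digit wells and lines at the mean of 3 wells. PLAUR under CSC lies above DMSO in GFP, FAT1, NRF2 and PIK3CA cells, and the spread within groups of PLAU, TIMP3 and TIMP2 is wide against the differences between groups.

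MMP10, a stromelysin that cuts proteoglycans and activates other metalloproteinases, was found mainly in CDKN2A cells. It lies at hg19 chromosome 11, 102641233 to 102651359, on the minus strand. The 3 CDKN2A DMSO wells held 6, 5 and 8 counts, and all GFP and HCRED DMSO wells held 0. Over the 11 CDKN2A wells, 2-digit wells included, there were 52 counts and 1 well at 0, against 32 counts and 60 wells at 0 among the other 84 wells. Pooled, CDKN2A cells under DMSO had 4 CPM of MMP10, 5.01-fold the limit in GFP cells, set at 3 counts over the 3 GFP wells. That ratio takes the 19 counts of the CDKN2A wells as exact, so it is not a lower bound. The gene passed the filter of a mean count above 1 only through CDKN2A cells, so its fitted log2 difference of 3.30 (SE 0.82, adjusted p = 0.00152) had to point upwards and depends on the offset added to zero counts. DESeq2 gave no adjusted p for it. In CDKN2A cells the wells outside the fits held 7, 6 and 6 counts under CSC, 6, 4 and 2 under NNK and 0 and 2 under BaP. Scaled to CPM, the CSC wells at 5.74 to 7.27 lay above the DMSO wells at 3.35 to 5.09, and the NNK and BaP wells lay below them. The raw counts under CSC and under NNK overlapped those under DMSO, so these separations rest on the well totals.

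MMP1, the interstitial collagenase, lies at hg19 chromosome 11, 102660132 to 102668891, and shares 223 exon bases with WTAPP1 on the opposite strand, which had 6 counts in 82 wells. The gene had 30 counts in the 15 CSC wells of the fit and 6 counts in the 15 DMSO wells. NRF2 cells gave 9 counts under CSC and 0 under DMSO, PIK3CA cells 15 against 1, HCRED cells 3 against 1, GFP cells 3 against 2, and FAT1 cells 0 against 2. The log2 difference under CSC was 1.53 (SE 0.39, adjusted p = 0.00561), for a gene whose mean of 1.2 counts passed the filter mainly through CSC wells of 2 populations. The call was lost when genes with low counts were kept (adjusted p = 0.0826) and without NRF2 cells (0.109), and the F for a difference between populations had an adjusted p of 0.726. CDKN2A cells held 5, 3 and 0 counts of MMP1 under DMSO and 3, 1 and 3 counts in the CSC wells outside the fit.

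**Figure D4:**
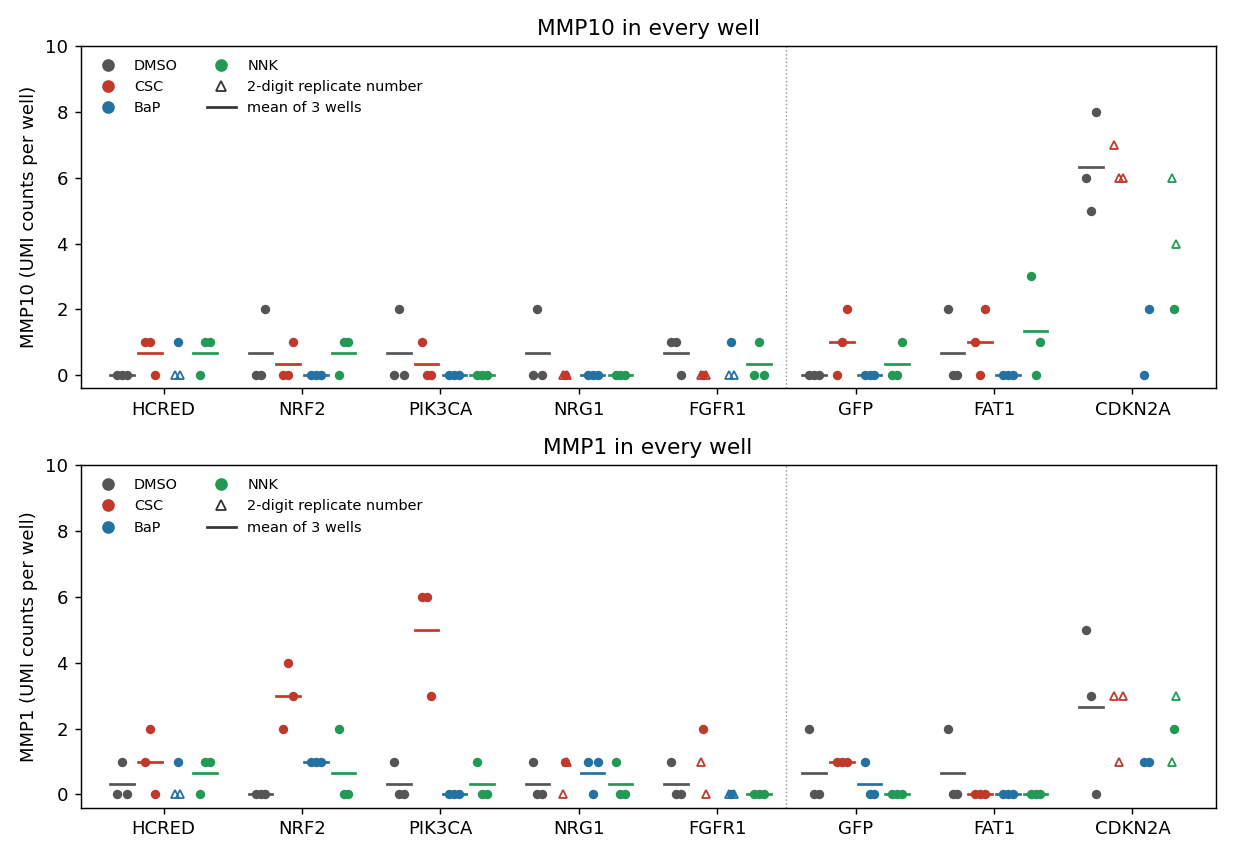
UMI counts of MMP10 (top) and MMP1 (bottom) in every well (y axis) by population (x axis) and chemical (colour), with open triangles for 2-digit wells and lines at the mean of 3 wells. MMP10 reaches 8 counts in CDKN2A wells and at most 3 elsewhere, and MMP1 reaches 6 counts in PIK3CA wells under CSC.

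MMP14, the membrane-bound collagenase that activates pro-MMP2, and MMP2, the gelatinase, had too few counts to pass the filter on low counts. MMP14 had at most 3 counts in a well and MMP2 at most 2. With low counts kept, MMP14 was higher under NNK by 0.77 on the log2 scale (SE 0.26, adjusted p = 0.0442). That fit of 42 wells called 1671 of 16929 genes higher and 474 lower, with a median log2 fold change of 0.093 over all genes. MMP14 had 18 counts in the 22 NNK wells and 12 in the 24 DMSO wells with 1-digit numbers, which include CDKN2A wells outside the fit. MMP2 was called in no comparison.

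PLAUR, which anchors urokinase on the cell surface, was the most counted member after TIMP1, at hg19 chromosome 19, 44150247 to 44174699. Under DMSO CDKN2A wells held 25.1, 29.5 and 22.9 CPM and NRF2 wells 11, 12.2 and 8.45 CPM, the ends of the order of population means. Between them came PIK3CA at 24.1, NRG1 22.3, FGFR1 20.6, HCRED 17.3, GFP 14.2 and FAT1 12.9 CPM, and only FGFR1 and HCRED did not overlap among neighbours. CDKN2A wells lay above the GFP wells at 10.1, 15.0 and 17.6 CPM, a log2 difference of 0.75 (SE 0.26, adjusted p = 0.0299), in a comparison that called 17.9% of all genes. That call was lost in DESeq2 (adjusted p = 0.152) and without GFP DMSO replicate 1 (0.211), GFP DMSO replicate 2 (0.0608) or CDKN2A DMSO replicate 1 (0.0663). PIK3CA cells against HCRED cells passed only in the fit over all chemicals, at 0.56 (adjusted p = 0.0023).

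PLAUR was also higher under CSC. GFP wells held 26.9, 29.3 and 17.9 CPM under CSC and FAT1 wells 16.5, 24.6 and 21.1 CPM, above all of their DMSO wells. NRF2 wells, at 13.2 to 25.6 CPM, and PIK3CA wells, at 28.3 to 40.7 CPM, also lay above theirs, while HCRED wells at 16.6 to 20.3 CPM overlapped. The log2 fold change over the 5 populations was 0.57 (SE 0.11, adjusted p = 0.000131), and the difference between populations was not past the threshold (F 0.897, adjusted p = 0.933). Outside the fits, PLAUR under CSC overlapped DMSO in FGFR1, NRG1 and CDKN2A cells. Under BaP and NNK PLAUR was not called. NRF2 wells under BaP (mean 15.4 against 10.6 CPM) and FAT1 wells under NNK (16.4 against 12.9 CPM) lay above their DMSO wells. FGFR1 BaP wells, outside the fits at 12.1 to 17.4 CPM, lay below the DMSO wells at 18.9 to 22.2 CPM.

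PLAU, the urokinase gene, ranged from 2 to 24 counts per well and was called in no comparison under any setting. FGFR1 wells under DMSO held 13.2, 10.5 and 14.1 CPM, and NRF2 wells 3.15, 5.44 and 5.63 CPM, the highest and lowest means, and those 2 populations did not overlap. PLAU shares 915 exon bases with C10orf55 on the opposite strand, a gene with 35 counts in 82 wells. PLAT, the tissue plasminogen activator gene, held 2.23, 6.48 and 5.72 CPM in CDKN2A wells and 2.54, 5.66 and 3.86 CPM in FAT1 wells under DMSO, against 0, 2.49 and 2.20 CPM in GFP wells. FAT1 cells against GFP cells gave a log2 difference of 1.54 (SE 0.69, adjusted p = 0.133) under DMSO and 1.89 in the fit over all chemicals (adjusted p = 1.36e-05). Without GFP DMSO replicate 1, the well at 0, it was 0.68 (adjusted p = 0.568), and it passed in no other leave-out. The gene had 111 counts in the 30 Cas9 wells and 104 in the 52 overexpression wells. Of the Cas9 counts, 70 came from FAT1, 28 from CDKN2A and 13 from GFP cells. Pooled GFP wells, at 0.97 CPM, lay below pooled overexpression wells, at 1.57 CPM.

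Counted over comparisons, 1 of 6 members tested was called in NRF2 against HCRED, 1 of 6 in GFP against HCRED, 1 of 6 in FAT1 against GFP and 2 of 8 in CDKN2A against GFP. None of 6 was called in FGFR1, NRG1 or PIK3CA against HCRED, where 0.914%, 3.08% and 5.4% of all genes were called, and 1, 1 and 3 of the 6 had an unadjusted p under 0.05. edgeR and DESeq2 also called none in those 3 comparisons. CSC called 3 of 7, BaP 1 of 6 and NNK 2 of 6. By direction, 3.39% of all genes were higher and 1.52% lower in NRF2 cells, 0.501% and 0.413% in FGFR1, 2.08% and 0.998% in NRG1, 3.36% and 2.05% in PIK3CA and 5.94% and 4.86% in GFP cells, each against HCRED. The shares were 6.39% higher and 7.7% lower in FAT1 and 8.64% and 9.22% in CDKN2A cells against GFP, and 2.95% and 2.86% under CSC, 5.04% and 4.12% under BaP and 3.07% and 4.15% under NNK. Because the members were chosen with these levels known, nothing is read from their counts against those shares. Members that were tested had passed a filter on low counts, and MMP2 and MMP14 passed it in no comparison. The median log2 fold change of the members tested ran from -0.74 in GFP against HCRED to 0.83 in CDKN2A against GFP. The median of all genes stayed between -0.03 and 0.03 in the 10 comparisons. The CDKN2A median includes MMP10 and MMP1, at 3.30 and 0.92, which passed the filter only or mainly through CDKN2A wells. Nothing is read from these medians either.

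**Figure D5:**
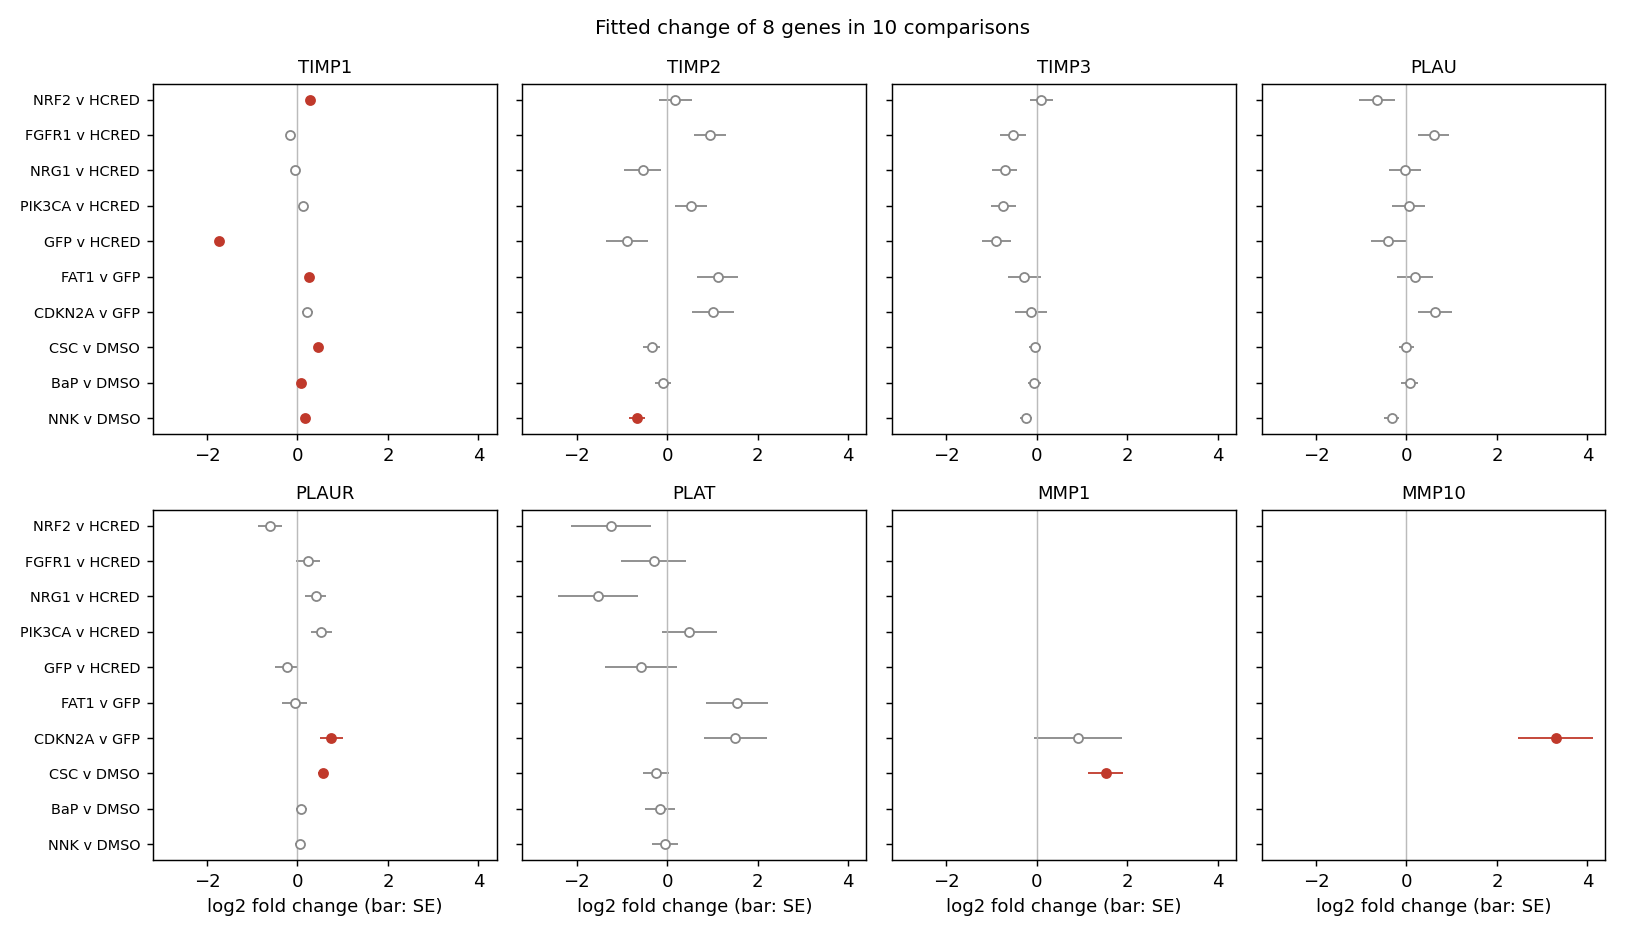
Fitted log2 fold change with 1 standard error (x axis) of 8 members in 10 comparisons (y axis), filled red where the adjusted p is under 0.05, with no point where the gene did not pass the filter on low counts. TIMP1 is filled in 6 comparisons and runs from -1.72 to 0.45, and MMP1 and MMP10 appear only where their counts allowed a fit.

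Other genes of the pathways were counted from lists set by function, also with earlier results known. A list of 11 genes held inhibitors of the plasminogen system and other serpins, among them SERPINB5, SERPINB6 and SERPINB8. Of these 11 genes, 7 were tested under CSC, 5 rose and none fell, with a median log2 fold change of 0.20. Of all genes 2.95% were higher and 2.86% lower. SERPINB2, plasminogen activator inhibitor 2, rose by 2.19 (SE 0.16, adjusted p = 1.93e-18). Under BaP SERPINB2 rose by 1.11 (SE 0.19) and SERPINB6, an intracellular inhibitor of serine proteinases, by 0.24. They were the 2 of 7 called, beside 5.04% of all genes higher and 4.12% lower. NNK called none of the 7, beside 3.07% and 4.15%. In FAT1 cells against GFP cells SERPINB2 fell by 3.22 and SERPINB6 by 0.72, and none of the 7 rose, beside 6.39% of all genes higher and 7.7% lower. In CDKN2A cells both were lower as well, at -2.92 and -0.90, while SERPINI1 rose by 2.13. SERPINI1, which inhibits tissue plasminogen activator, was higher than in HCRED cells by 0.93 in NRF2, 0.96 in FGFR1 and 1.23 in PIK3CA cells, and the call in FGFR1 cells was lost in DESeq2 and without HCRED DMSO replicate 2.

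The RNAs of ANXA2, S100A10 and ENO1, whose proteins bind plasminogen at the cell surface, changed by small amounts in high counts. ANXA2 and S100A10, which form a complex that gathers plasminogen and its activator, were higher in GFP than in HCRED cells by 0.36 and 0.28. Both were lower in FAT1 than in GFP cells, by 0.69 and 0.56 on the log2 scale, and in CDKN2A than in GFP cells, by 0.78 and 0.59. ENO1, a glycolytic enzyme that also binds plasminogen, rose under NNK by 0.59 (SE 0.05), under BaP by 0.25 and under CSC by 0.13, whereas S100A10 fell under CSC by 0.19 and under BaP by 0.20. Their list also held uptake receptors and other genes of few counts, and 10 of its 14 genes were tested in each chemical. Under CSC 1 rose and 2 fell, beside 2.95% of all genes higher and 2.86% lower. Under BaP 1 rose and 2 fell, beside 5.04% and 4.12%, and under NNK 1 rose and none fell, beside 3.07% and 4.15%. VLDLR, with a mean of 1.82 counts, was among those that fell under BaP, at -1.11 (SE 0.35, adjusted p = 0.0289). That call was lost in 7 of 40 other settings.

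Other matrix-degrading enzymes were listed by class, and CDKN2A cells had 8.64% of all genes higher and 9.22% lower than GFP cells. A list of 25 other matrix-degrading and activating enzymes held cathepsins, kallikreins and membrane serine proteinases, and also HPSE, HTRA1, PRSS23, FAP and DPP4. Of these 25, 16 were tested against GFP cells, 8 fell and none rose. Those that fell included CTSV, a lysosomal cysteine proteinase, by 1.73 (SE 0.12) and KLK7, an epidermal kallikrein, by 2.64 (SE 0.39). KLK7 was also lower than in HCRED cells in NRG1 cells, at -2.92, and in PIK3CA cells, at -2.87. FAT1 cells had 1 gene of this list higher and 2 lower than GFP cells, beside 6.39% of all genes higher and 7.7% lower. PRSS8, or prostasin, was higher by 0.89, KLK5 was lower by 3.77 and KLK7 by 1.06. Under CSC PRSS23, a secreted serine proteinase, fell by 0.79 and CTSL, a lysosomal proteinase, rose by 0.30. CTSL rose under NNK by 0.27 and CTSB fell by 0.28.

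The other metalloproteinases were hardly counted. Of 19 further MMP genes, 1 passed the filter in every comparison except CDKN2A against GFP, where 3 did. There MMP13, collagenase 3, rose by 2.27 (SE 0.85, adjusted p = 0.0487) and MMP28 fell by 1.34 (SE 0.45, adjusted p = 0.0251). MMP13 was above 0 in all 11 CDKN2A wells, with 40 counts, and in 12 of the other 84 wells, with 15 counts, so it too passed the filter through CDKN2A cells. Its call was lost with median-ratio size factors and when any of 5 wells was left out, and that of MMP28 in DESeq2 and when any of 3 wells was left out. Of 22 ADAM, ADAMTS and astacin genes, 6 to 8 were tested. In CDKN2A against GFP 1 was called, beside 17.9% of all genes, 1 under NNK, beside 7.22%, and none in the other comparisons. Among 12 further inhibitors and activators, TIMP4 rose under CSC by 1.37 (SE 0.31, adjusted p = 0.00122), and CD44, a surface receptor that docks metalloproteinases, fell under BaP by 0.31 and under NNK by 0.35.

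Across the 25 groups with 3 wells, the genes whose mean log2 CPM followed TIMP1 most closely were UPK1B (Pearson r 0.94), GPRC5A (0.93) and DYNLL1 (0.92), among 5654 genes with a mean of at least 10 counts. For TIMP3 they were AKR1C2 (0.82), SLC25A12 (0.79) and SPAG16 (0.78), and for PLAUR MAP2K1 (0.80), THBS1 (0.78) and TMEM156 (0.77). These groups share populations and plate positions, so the values describe likeness in these wells. Between members the correlation over the same groups was 0.54 for TIMP1 and TIMP3, 0.27 for TIMP1 and PLAUR and -0.09 for TIMP3 and PLAUR.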

How the data were processed

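UMI counts per gene were deposited for 95 wells of AALE cells, raw and not normalized. As the study's methods describe, the authors received count matrices in which BWA aln 0.7.10 had placed reads on RefSeq transcripts of hg19 and each UMI counted once per gene and well. No reads were realigned here. Counts were analysed in R 4.3.3 with limma 3.58.1 (voom weights, TMM factors from edgeR 4.0.16) over genes with a mean count above 1, two-sided, with Benjamini-Hochberg adjustment over all genes tested and a threshold of 0.05. Populations were compared 3 wells against 3 under DMSO, and chemicals across populations with 3 wells in both arms (30, 30 and 42 wells for CSC, BaP and NNK). edgeR, DESeq2 1.42.0, other size factors, no filter, a replicate block, added wells and leave-outs were alternatives, and the scripts were tested on simulated data. Positions and overlaps came from GENCODE in hg19. The members and the wider lists were chosen with earlier results of these data known. All members are named, with up to 2 genes per list and direction having the smallest adjusted p past the threshold, and the 3 genes closest by correlation. Totals of 692446 to 1895735 counts per well limit the precision for genes of a few counts. Some genes covered by these rules are not reported here.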

Additional observations from a re-analysis of the deposited data

Results flagged for a closer look

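The response of TIMP1 to CSC differed between populations by the moderated F of 11 over 5 populations. In wells that entered no fit, the lowest TIMP1 level under CSC was 1262 CPM in FGFR1 cells and 1374 CPM in NRG1 cells, above every DMSO well of the same population. The lowest TIMP3 level under CSC in CDKN2A cells was 10.9 CPM, against at most 10.8 CPM under DMSO. These wells were compared without a test, and most carried 2-digit replicate numbers.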

How the results depend on the processing

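The number of members called in FGFR1 against HCRED went from 0 to 2 in the fit over all chemicals, in PIK3CA against HCRED from 0 to 2, in GFP against HCRED from 1 to 2 and in FAT1 against GFP from 1 to 4. In FGFR1 cells the 2 were TIMP1, which was lower (adjusted p = 0.00219, limma-voom), and TIMP2, which was higher (adjusted p = 0.0234). edgeR called 2 in GFP against HCRED and 2 in FAT1 against GFP, and DESeq2 called 0 in CDKN2A against GFP and 2 under CSC in place of 3, where it gave no adjusted p for MMP10 and MMP1, respectively, so those are not counted as lost calls. Leaving out 1 replicate gave 0 to 1 in PIK3CA, 1 to 2 in GFP, 0 to 1 in FAT1 and 1 to 3 in CDKN2A comparisons. Under BaP the count was 0 with all wells and without the FAT1, GFP or NRG1 population, and under NNK it was 1 without the FAT1, NRF2 or PIK3CA population 0 without HCRED and 3 with low counts kept, where MMP14 was added. With low counts kept, 0 members differed in the CSC response between populations. TMM factors moved the ratio of lowest to highest TIMP1 well to 1.49. TIMP3 in FAT1 against GFP, at -0.27, ran from -0.62 to 0.058 when 1 replicate was left out, the highest without GFP DMSO replicate 3. ANXA2 in NRG1 against HCRED, at 0.12, was -0.077 over all chemicals. The cause was not tested. No pairing of wells by replicate number was seen (deviation correlations from -0.104 to 0.0987 over 72 pairs), which with 3 wells per group does not exclude it. With the replicate block the members called in FAT1 against GFP were 2, with TIMP2 at 1.24 (adjusted p = 0.0405), and no other comparison changed its count of members. Over all genes, calls went from 551 to 351 in DESeq2 and 1197 over all chemicals for NRF2, from 104 to 51 and 367 for FGFR1, from 349 to 217 and 48 for NRG1, from 607 to 341 and 1465 for PIK3CA, from 1202 to 659 and 2557 for GFP and from 1570 to 856 and 3695 for FAT1, and from 2067 to 1247 in DESeq2 for CDKN2A. With all wells they went from 661 to 1134 under CSC, from 1036 to 1649 under BaP and from 819 to 1392 under NNK. NNK also gave 2145 with low counts kept, 491, 545 and 513 without FAT1, HCRED or NRF2 cells, 2034 without NRG1 cells, and 687 to 2245 without 1 replicate. Genes whose response differed between populations went from 12 to 38, 20 and 3 under BaP and from 2 to 5, 10 and 1 under NNK with the replicate block, edgeR and low counts kept, and to 8 to 21 and 1 to 16 without 1 replicate. Among 68 calls of list genes, 44 held under every setting that gave an adjusted p. These 68 were only the calls with the smallest adjusted p, up to 2 per list, direction and comparison. Low counts limit MMP1, MMP2, MMP10, MMP14 and PLAT. No DMSO well carried a 2-digit number, and CDKN2A and GFP share no other chemical with 3 wells, so those alternatives gave no value there.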
